A study of Mus musculus with 144 samples.

Results

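The 40 genes described here are interferon-stimulated genes of the mouse, picked by gene symbol from the 55364 genes of the deposited table. Of these, 34 are known mainly as targets of type I interferon, among them Isg15, the Ifit, Oas and Schlafen genes, Irf7, Irf9 and Stat2. The other 6, Igtp, Irgm1, Iigp1, Gbp2, Gbp3 and Gbp7, encode GTPases known for induction by interferon gamma. The interferon-induced transmembrane Ifitm genes are not among the 40. All 40 symbols were present in the table.

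Type I interferons, such as interferon beta, bind the receptor formed by Ifnar1 and Ifnar2, and Janus kinases then phosphorylate transcription factors, Stat2 among them. Stat2 acts in a complex with Irf9 that binds an element named ISRE in the promoters of their targets. Interferon gamma acts through Ifngr1 and Ifngr2, and its signal reaches an element named GAS. Many products of these genes block the entry, translation or replication of viruses, and microglia with high levels of them have been described as a small subset in the mouse brain.

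Messenger RNA was measured in single cells sorted by flow cytometry from retinas of Iba1-EGFP mice, in which green fluorescence marks microglia and other cells of the macrophage lineage. All mice were of the C57BL/6 strain and 20 to 22 months old. The 144 wells, 48 on each of 3 plates, comprised 54 from retinas without treatment (uncrushed), 36 from day 2 after crush of the optic nerve and 54 from day 4. Grouping followed the titles, and 18 plate 1 wells titled day 4 carry a treatment tag of day 2. The labels tie no well to an animal, so each group is 1 sample, wells are not replicates, and differences are given with their size and spread over wells but with no test. Each group also occupied its own plate rows, A to C, D to E and F to H in that order, so group and row cannot be told apart within a plate.

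Values are FPKM, fragments per kilobase of gene for every 1000000 assigned, from which the number of reads per well was recovered. It split the wells into 88 deep wells of at least 60079 reads and 56 shallow wells of at most 14205 reads. Deep wells numbered 39 of 54 in the uncrushed group, 25 of 36 at day 2 and 24 of 54 at day 4. The conflicting tag was carried by 12 of the 24. Everything below refers to deep wells unless stated, and a gene counts as found in a well at 10 or more reads. Where gene length plays no part, levels are given as RPM, reads for every 1000000 assigned in the well. Of 15 microglia markers, at least 3 were found in 39 of 39 uncrushed wells, 22 of 25 day 2 wells and 22 of 24 day 4 wells, so a few wells did not bear out the cell label. Some wells that passed also held many of 13 neutrophil markers. Uncrushed replicate 17 held 6 microglia and 9 neutrophil markers, and day 2 replicates 22 and 26 held 3 and 7 microglia markers with 7 neutrophil markers each. Day 4 replicate 11 held 3 microglia, 7 neutrophil and 12 rod markers. A median of 1044 genes was found per uncrushed well, 1507 per day 2 well and 2174 per day 4 well, and this difference in the number of genes per well touches every count of members below.

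The promoters of the members show which of these genes carry the letters of the ISRE and GAS elements near their start. RefSeq promoters (GRCm38.p6, 250 bases before to 50 after each start site) existed for 29 of the 40 members, some with several start sites, 34 promoters in all. The ISRE was searched as GAAANNGAAA and the GAS as TTCNNNGAA, on both strands. ISRE letters were present in 19 of 34 member promoters (55.9%), belonging to 17 of 29 genes, against 3.44% of the 32851 promoters of that length in the table. GAS letters were present in 7 of 34 (20.6%), against 8.3% of all. By class, 12 of 24 type I members and 5 of 5 gamma-induced members with a promoter held the ISRE letters. The 200 bases before the start site are printed for 6 members, with ISRE letters in capitals, because Isg15, Ifit3 and Bst2 are among the strongest or most changed members, Irgm1 and Gbp7 stand for the gamma-induced class, and Slfn2 had the largest difference at day 2.
Isg15: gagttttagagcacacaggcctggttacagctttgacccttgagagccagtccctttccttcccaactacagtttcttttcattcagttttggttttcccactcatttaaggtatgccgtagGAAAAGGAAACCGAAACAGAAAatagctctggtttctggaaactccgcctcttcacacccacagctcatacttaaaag
Ifit3: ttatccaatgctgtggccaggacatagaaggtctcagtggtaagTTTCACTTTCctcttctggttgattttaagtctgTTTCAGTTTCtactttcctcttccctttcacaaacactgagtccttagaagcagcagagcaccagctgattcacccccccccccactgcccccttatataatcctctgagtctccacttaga
Bst2: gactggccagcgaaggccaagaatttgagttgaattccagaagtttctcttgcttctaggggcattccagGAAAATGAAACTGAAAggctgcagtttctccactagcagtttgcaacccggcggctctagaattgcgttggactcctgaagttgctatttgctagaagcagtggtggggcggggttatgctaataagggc
Irgm1: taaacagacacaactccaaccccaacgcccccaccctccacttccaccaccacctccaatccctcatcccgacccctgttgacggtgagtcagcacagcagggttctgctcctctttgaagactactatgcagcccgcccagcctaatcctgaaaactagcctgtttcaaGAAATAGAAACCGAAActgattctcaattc
Gbp7: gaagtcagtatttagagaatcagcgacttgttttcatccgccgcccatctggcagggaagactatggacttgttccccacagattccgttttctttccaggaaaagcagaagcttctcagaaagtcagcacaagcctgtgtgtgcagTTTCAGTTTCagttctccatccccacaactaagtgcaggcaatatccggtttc
Slfn2: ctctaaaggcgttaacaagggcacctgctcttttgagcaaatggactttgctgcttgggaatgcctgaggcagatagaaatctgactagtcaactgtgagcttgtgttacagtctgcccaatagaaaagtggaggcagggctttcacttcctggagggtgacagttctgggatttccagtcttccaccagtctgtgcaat

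These windows lie on GRCm38.p6 at chr4:156200819-156201018, minus strand, for Isg15, chr19:34583329-34583528, plus strand, for Ifit3, and chr8:71537473-71537672, minus strand, for Bst2. For Irgm1 the window is chr11:48871421-48871620, minus strand, for Gbp7 chr3:142530136-142530335, plus strand, and for Slfn2 chr11:83064912-83065111, plus strand. Counted backwards from the start site, Isg15 held 3 overlapping ISRE matches between bases -78 and -57, and Ifit3 held 2 separate ones on the opposite strand, at -156 to -147 and -122 to -113. In Bst2 a GAS match at -136 to -128 overlapped the first of 2 overlapping ISRE matches between -130 and -115, which was the sole such overlap among the 34 member promoters. Irgm1 held 2 overlapping ISRE matches between -30 and -15, and Gbp7 held 1 ISRE match at -53 to -44 and GAS matches at -106 to -98 and -87 to -79. Slfn2, Irf7, Irf9, Oasl1, Oasl2, Ifi44, Xaf1, Herc6 and Cmpk2 had neither set of letters in their promoter entries. Rtp4, Usp18, Oas2, Mx1, Ifi27l2a, Dhx58, Zbp1, Parp14, Iigp1, Ifi204 and Ly6e had no entry. A match is a run of letters and does not show that a factor was bound.

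**Figure D1:**
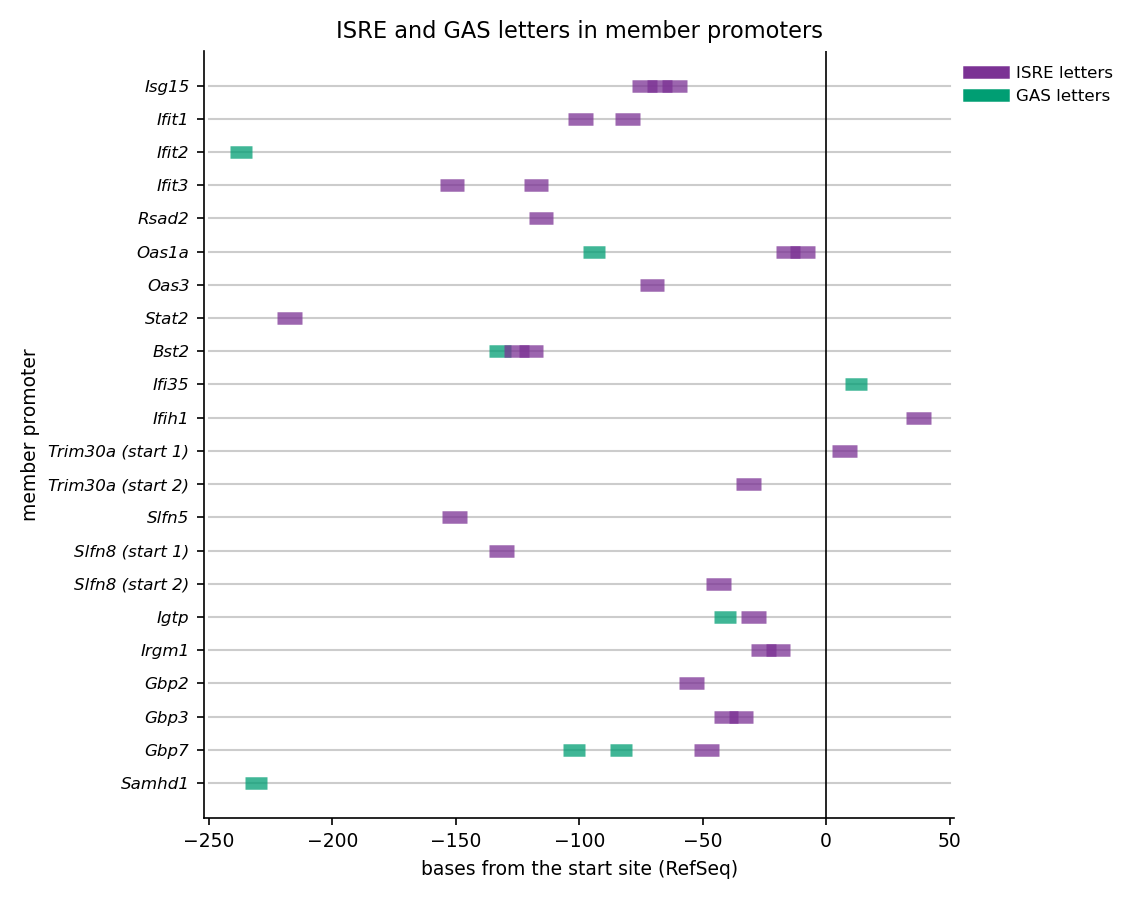
Positions of ISRE letters (purple) and GAS letters (green) in the 22 member promoters that hold either, in bases from the RefSeq start site (vertical line). Most ISRE matches lie within 160 bases before the start, with Stat2 further upstream and matches of Ifih1 and of a Trim30a start site just after it.

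In most microglia wells only a few of the 40 genes were found, and in a few wells nearly all were. The number of members per well ran from 0 through a median of 2 to 33 in uncrushed wells, from 0 through 5 to 32 at day 2, and from 0 through 4.5 to 38 at day 4. The middle of the distribution, from the first to the last quartile, was 1 to 3.5 in uncrushed wells, 3 to 10 at day 2 and 2 to 13.25 at day 4. The 3 groups overlapped over nearly their whole range, and wells with 30 or more members were present in each, 2 of 39 uncrushed, 1 of 25 at day 2 and 1 of 24 at day 4.

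At least 5 members were found in 8 of 39 uncrushed wells (20.5%, exact Clopper-Pearson 95% interval 9.3 to 36.5), 15 of 25 day 2 wells (60%, 38.7 to 78.9) and 12 of 24 day 4 wells (50%, 29.1 to 70.9). At least 10 members were found in 3 of 39 uncrushed wells (7.69%, 1.62 to 20.9), 7 of 25 day 2 wells (28%, 12.1 to 49.4) and 8 of 24 day 4 wells (33.3%, 15.6 to 55.3). The intervals cover counting error among wells only and do not compare the groups, and reads without molecular identifiers are not independent molecules. Without the wells holding 3 or more neutrophil or rod markers, the shares at 10 members were 3 of 32, 6 of 16 and 5 of 18 wells, in the order of time. Such wells are called neutrophil or rod wells below for these markers, not as a cell type. Among the wells with 10 or more members, 1 of 7 at day 2 and 3 of 8 at day 4 held 3 or more neutrophil markers. All of these held at least 10 microglia markers. Without the wells of conflicting tag, the day 4 share was 5 of 12 (41.7%, 15.2 to 72.3).

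The wells with 10 or more members were spread unevenly over plates. Plate 1 held 0 of 11 uncrushed wells, 4 of 11 day 2 wells and 3 of 12 day 4 wells of this kind. Plate 2 held 1 of 15 uncrushed wells, 0 of 6 day 2 wells and 5 of 10 day 4 wells. Plate 3 held 2 of 13 uncrushed wells, 3 of 8 day 2 wells and 0 of 2 day 4 wells. The order of the day 2 and day 4 shares therefore differed between plates.

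Wells with more genes found held more members. Spearman's rho between members and all genes found per well was 0.73 over 39 uncrushed wells, 0.74 over 25 day 2 wells and 0.80 over 24 day 4 wells, given as a description since both counts come from the same library. When the deep wells were all cut down to 50000 reads, with a member counted at 1 read, the medians were 3 in uncrushed wells, 7 at day 2 and 5 at day 4. A high gene number did not always come with a high member number. In 10 wells with at least 4500 genes the members ran from 5 to 38, and day 4 replicate 13, with 8023462 reads and 4984 genes, held 5. Uncrushed replicate 26 held 33 members among only 2364 genes, from 465041 reads.

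**Figure D2:**
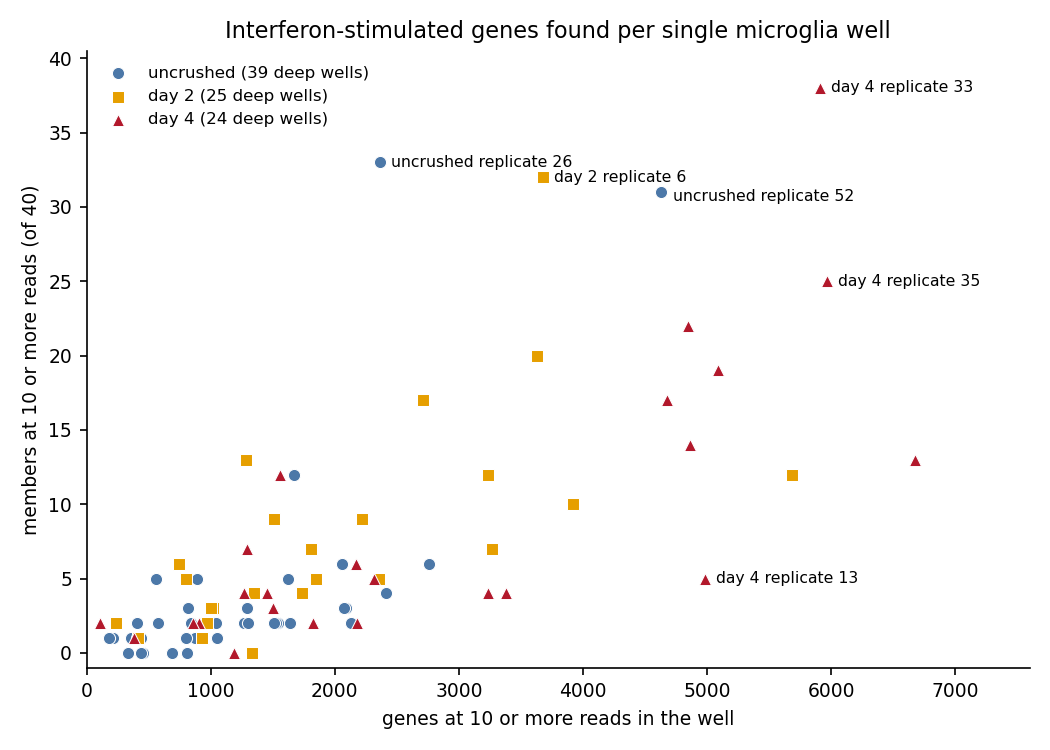
Number of the 40 members found at 10 or more reads (vertical axis) against the number of all genes found at 10 or more reads (horizontal axis), 1 point per deep well, with circles for uncrushed, squares for day 2 and triangles for day 4. Most wells sit below 10 members, the 4 wells above 30 come from all 3 groups, and uncrushed replicate 26 reaches 33 members at 2364 genes.

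The 4 wells with more than 30 members are described singly. Day 4 replicate 33 held 38 members, all but Oas3 and Ifi44, in 5909 genes. Uncrushed replicate 26 held 33, uncrushed replicate 52 held 31 in 4632 genes, and day 2 replicate 6 held 32 in 3676 genes. All 4 held 14 or 15 of the 15 microglia markers. Of the 13 neutrophil markers, day 4 replicate 33 held 3, uncrushed replicate 52 held 1, and uncrushed replicate 26 and day 2 replicate 6 held 0. Over the 18 wells with 10 or more members, microglia markers ran from 10 to 15.

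In uncrushed replicate 26 the 40 genes summed to 48178 RPM, against a median of 4707 over the 39 uncrushed wells. Ifit3 stood at 4815 FPKM there, Usp18 at 1966, Ifit2 at 1662, Isg15 at 1456 and Ifit1 at 896. Ifit1, an RNA-binding protein that recognises caps lacking a methyl mark, was found in 1 other uncrushed well, at 83.7 FPKM. Of the 38 members found in uncrushed wells, 20 had their highest value in this well. All 6 gamma-induced genes were found there, with Irgm1 at 495 FPKM and Igtp at 461. Ifi27l2a, a small membrane protein and one of the most abundant members by mean FPKM, stood at 4.64 FPKM there, from 1 read. That value ranked 19 among the 39 uncrushed wells, and 14 others held the gene at 10 or more reads. The low level is therefore not particular to this well.

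Uncrushed replicate 52 was the sole well of all 144 with a read of Ifnb1, the gene of interferon beta. Ifnb1 had 108 reads there (82.9 RPM, 111 FPKM). Among its members were Ifit2 at 496 FPKM, Isg15 at 356, Usp18 at 324, Oasl2 at 207 and Irf7 at 167, the last of these the factor that amplifies interferon production. It was also the sole deep well in which Ifi44 was found, at 2.5 FPKM from 20 reads. Ifnb1 was at 0 reads in the other 3 wells with more than 30 members.

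Day 4 replicate 33 had the highest value of its group for 18 of the 39 members found at day 4. Ifit3 reached 768 FPKM there, against 57.8 in the next day 4 well, and Ifit1 reached 173 against 0.495. Ifi204, a HIN protein that binds DNA, stood at 472 FPKM and Bst2 at 977. Iigp1 and Slfn8 were found in no other day 4 well. Day 2 replicate 6 had Ifit3 at 875 FPKM, Isg15 at 771, Ifit2 at 437, Ifit1 at 250 and Mx1 at 231. It also held Cxcl10, a chemokine induced by interferon gamma that is no member, at 1068 FPKM, against at most 1.05 in the other day 2 wells. In the other groups Cxcl10 stood at 495 FPKM in day 4 replicate 33 and 505 in day 4 replicate 35. It was at 94.4 FPKM in uncrushed replicate 52 and at 0 in uncrushed replicate 26. The highest day 2 values were less concentrated, as day 2 replicate 6 led the group for 6 of 38 members and day 2 replicate 25 for 7.

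**Figure D3:**
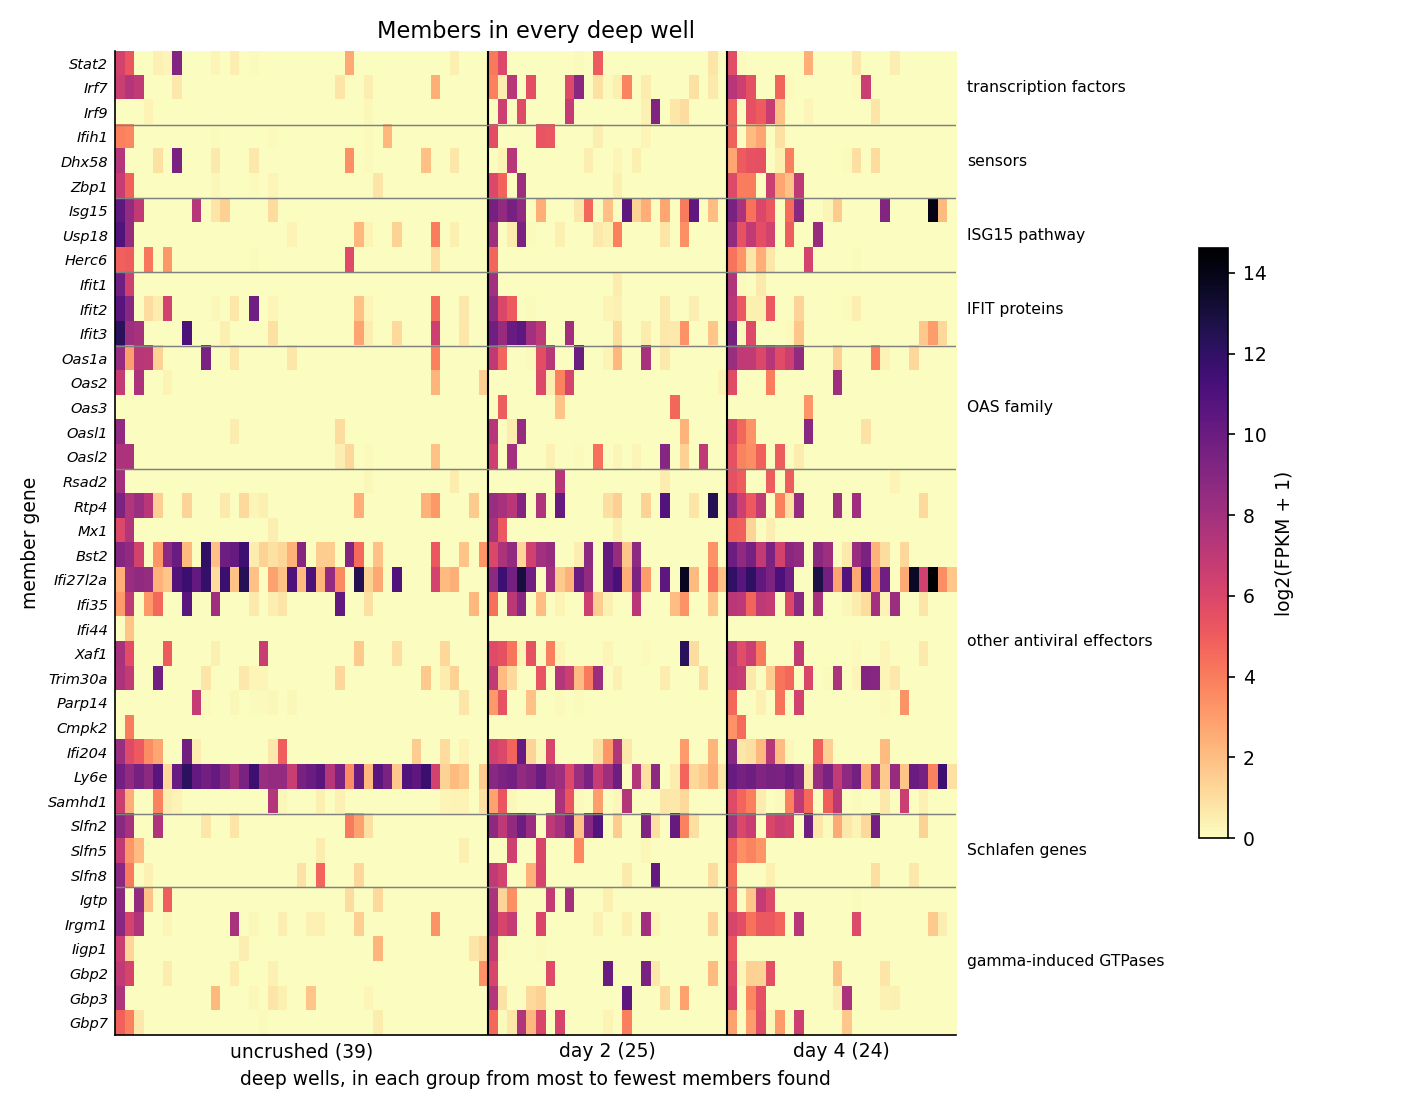
Level of each of the 40 members (rows, grouped by role) in each of the 88 deep wells (columns, ordered within each group from most to fewest members found), as log2(FPKM + 1). Ly6e, Ifi27l2a and Bst2 are present across many wells, while most other rows are filled mainly in the leftmost wells of each group.

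Single members therefore rested on few wells. A member was found in a median of 2.5 of 39 uncrushed wells, 4 of 25 day 2 wells and 4.5 of 24 day 4 wells. For 31 of the 38 members found in uncrushed wells, 25 of 38 at day 2 and 18 of 39 at day 4, at least 50% of the group's summed RPM lay in 1 well. Oas3 and Irf9 were found in 0 of 39 uncrushed wells, which allows a share of up to 7.69%, Ifi44 and Cmpk2 in 0 of 25 day 2 wells, up to 12%, and Ifi44 in 0 of 24 day 4 wells, up to 12.5%. These limits are 3 divided by the number of wells, not the exact intervals used above. They concern wells with 10 or more reads of the gene, not wells expressing it. Mean levels and differences below carry this spread, and the range over wells of every member named includes 0, or 0.62 FPKM for Ly6e at day 4, so the groups overlap for each of them.

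Ly6e, Ifi27l2a and Bst2 were found in 10 or more wells of each group. Ly6e encodes a membrane-anchored protein that restricts coronavirus entry. It was found in 31 of 39 uncrushed wells, 16 of 25 day 2 wells and 18 of 24 day 4 wells. Its FPKM ran from 0 through a median of 661 to 4714 in uncrushed wells, from 0 through 269 to 1002 at day 2 and from 0.62 through 614 to 3012 at day 4. The gene (ENSMUSG00000022587) lies on chromosome 15, 74955051 to 74959905, plus strand. Ifi27l2a reached 10 reads in 14 uncrushed, 13 day 2 and 15 day 4 wells. It ran from 0 through 4.48 to 5670 FPKM in uncrushed wells, from 0 through 261 to 13392 at day 2 and from 0 through 856 to 25210 at day 4 (ENSMUSG00000079017, chromosome 12, 103442167 to 103443680, minus strand). Bst2, or tetherin, which holds budding virus at the membrane, ran from 0 through 2.5 to 4119, from 0 through 1.33 to 1229 and from 0 through 39.6 to 977 FPKM, and reached 10 reads in 11, 10 and 12 wells of the 3 groups. By mean FPKM, the 4 highest members were Ly6e (844), Ifi27l2a (820), Bst2 (332) and Ifit3 (193) in uncrushed wells. At day 2 they were Ifi27l2a (1348), Rtp4 (405), Ly6e (298) and Slfn2 (293), and at day 4 Ifi27l2a (2710), Isg15 (770), Ly6e (587) and Bst2 (233).

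Differences between groups were taken as the mean of log2(FPKM + 1) over the deep wells of one group minus that of the other, and a difference of 1 or more was counted. At day 2, 9 of the 40 members (22.5%) were higher than in uncrushed wells by 1 or more, where 13.8% of the 9716 genes at FPKM 1 or more in 5% of wells were, and 1 member (2.5%) was lower, where 1.06% of genes were. The median difference was 0.47 over the members and 0.26 over those genes, and 30 members lay above 0 and 10 below. Shares of all or tested genes, here and below, cover only genes passing that filter of FPKM 1 or more in 5% of wells. Counts of members and of other lists cover every gene listed, and 35 of the 40 members passed the filter at day 2. By class, 8 of 34 type I members and 1 of 6 gamma-induced members were higher. Relative to the median of all tested genes, 5 members were higher and 1 lower. The median over members differed between plates, at 1.11 within plate 1, -0.32 within plate 2 and 0.44 within plate 3, and 10 members had the same sign in all 3. Without plate 1 the count was 4 and without plate 2 it was 17. Without the neutrophil or rod wells it was 10, of which Xaf1, Slfn8, Gbp2 and Ifi204 were not among the 9.

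At day 4, 10 of the 40 members (25%) were higher than in uncrushed wells, where 26.5% of 11089 genes were, and 0 were lower, where 0.712% of genes were. The members' share was thus close to that of all genes, and 36 of the 40 passed the filter. Their median, 0.51, was also close to the 0.50 of all tested genes, and 20 members lay above that general shift and 20 below it. All 10 were type I members, and 0 of 6 gamma-induced ones reached the size. The count was 5 without the neutrophil or rod wells, and 4 of these 5 were among the 10. The wells left out include day 4 replicates 33, 22 and 21, with 38, 22 and 14 members. Each of these held 15 microglia markers beside 3 neutrophil markers. The count was 19 with the 18 wells of conflicting tag left out or counted as day 2, and 16 without plate 1.

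Between the days, 3 of 40 members (7.5%) were higher at day 4 than at day 2, where 12% of 12615 genes were, and 3 (7.5%) were lower, where 1.23% were. The median over the members was -0.01, against 0.22 over all tested genes, and 36 of the 40 members passed the filter. On the RPM scale 6 were higher and 4 lower, and relative to the median of all tested genes 3 were higher and 4 lower. Leaving out day 2 replicate 6 brought the number higher at day 4 to 6, and leaving out day 2 replicate 35 brought it to 5. The median within plate was -0.63 on plate 1, 1.18 on plate 2 and -0.74 on plate 3. Without the neutrophil or rod wells, 2 members were higher at day 4 and 8 were lower, and the median over the members was -0.30. The share of all genes was not computed for that set. The comparisons with the uncrushed wells share those wells, so they are not independent of each other.

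**Figure D4:**
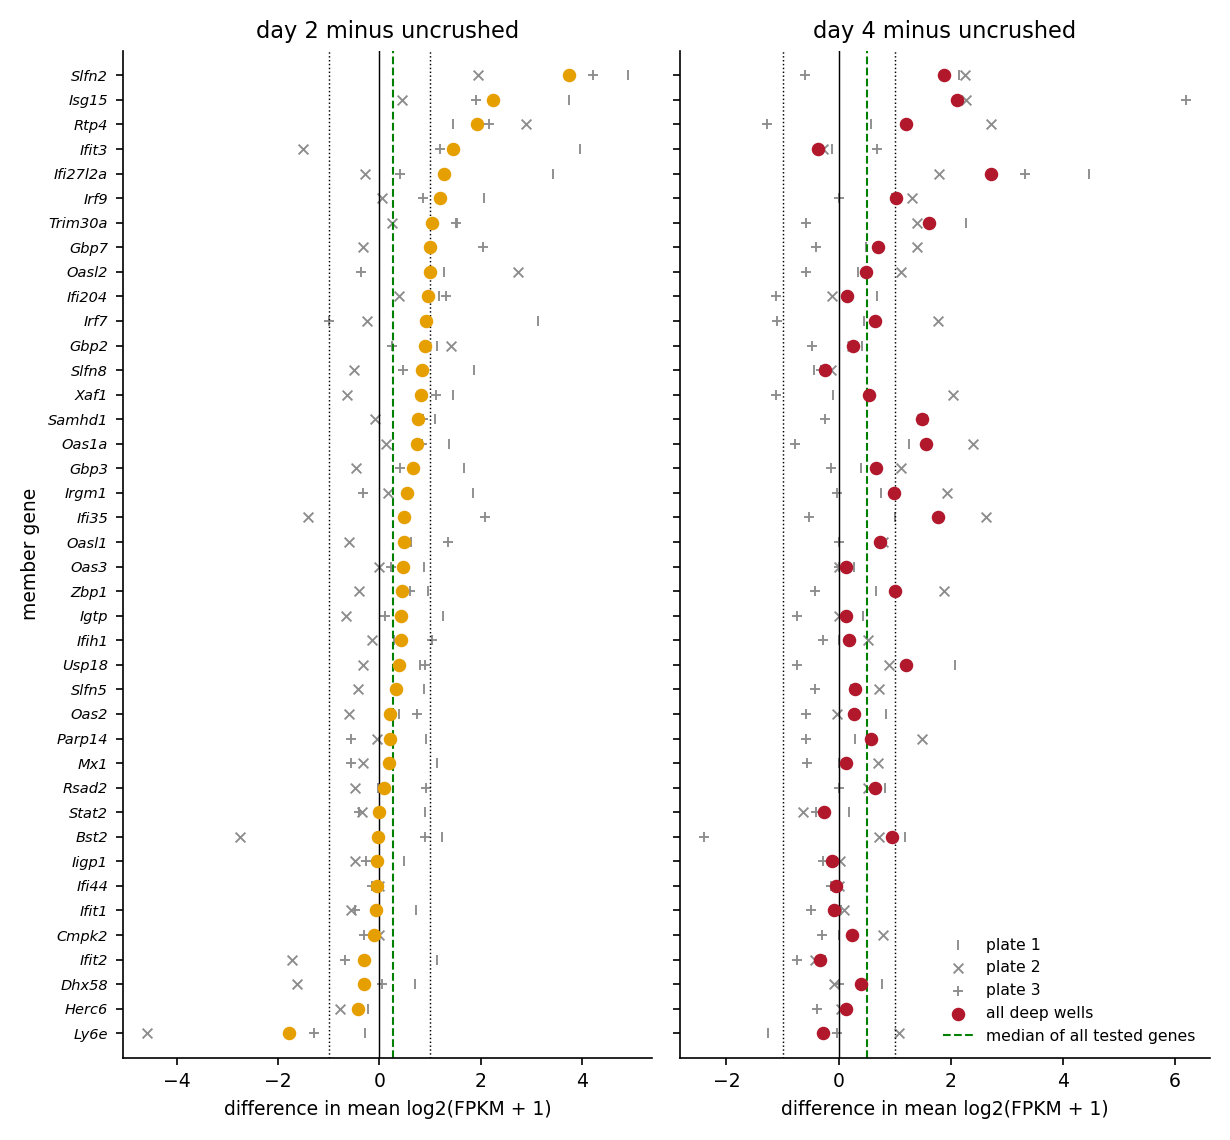
Difference in mean log2(FPKM + 1) for each member, day 2 minus uncrushed (left) and day 4 minus uncrushed (right), over all deep wells (filled circles) and within each plate (grey marks), with dotted lines at -1 and 1 and a dashed green line at the median of all tested genes. Slfn2 leads at day 2 at 3.74 and Ifi27l2a at day 4 at 2.72, Ly6e lies at -1.79 at day 2, and single-plate values of most members scatter over more than 1 unit.

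Counted by wells in place of levels, 33 of 40 members (82.5%) were found in a higher share of day 2 wells than of uncrushed wells, where 70.3% of tested genes were. For day 4 against uncrushed wells it was 34 of 40 (85%), where 82.4% of genes were. For day 4 against day 2 it was 29 of 40 (72.5%), where 73.7% were. The median share of wells holding a member was 6.41% in uncrushed wells, 16% at day 2 and 18.8% at day 4. At day 2 the members' share lay above that of all genes, and in the comparisons that involve day 4 it stood near it.

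Among the transcription factors, Irf9, the DNA-binding part of the complex with Stat2, was found in 0 of 39 uncrushed wells, 4 of 25 day 2 wells and 5 of 24 day 4 wells, with highest values of 0.241 FPKM in uncrushed wells, 590 at day 2 and 105 at day 4. Its mean log2(FPKM + 1) was 1.21 ± 2.67 at day 2 and 0.01 ± 0.06 in uncrushed wells (SD over wells), a difference of 1.20, and at day 4 it was 1.05 ± 2.12, a difference of 1.03. Within plates Irf9 differed by 2.06, 0.06 and 0.85 at day 2 and by 0.96, 1.31 and 0 at day 4. It fell short of a difference of 1 over all wells, shallow ones included, at 0.83 and 0.79, and at day 4 without the neutrophil or rod wells, at 1.39 and 0.68 on the 2 days. Irf7 was found in 3, 6 and 5 wells in the order of time, ran up to 167, 451 and 156 FPKM, and differed from uncrushed wells by 0.91 at day 2 and 0.64 at day 4. Stat2 was found in 3, 3 and 2 wells and differed by -0.01 and -0.26. Neither Irf7 nor Stat2 reached a difference of 1 over all plates. Within plates Irf7 differed by 3.13, -0.25 and -0.99 at day 2 and by 0.45, 1.78 and -1.10 at day 4, and without the wells holding 3 or more neutrophil or rod markers by -0.05 and -0.02.

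Of the ISG15 pathway, Isg15 itself, a ubiquitin-like protein joined to others after interferon, was higher on both days. It was found in 4 of 39 uncrushed wells, 7 of 25 day 2 wells and 8 of 24 day 4 wells, with medians of 0, 2.7 and 0.0886 FPKM and highest values of 1456, 1421 and 16384. Its mean log2(FPKM + 1) was 3.17 ± 3.89 at day 2 and 3.04 ± 4.14 at day 4, against 0.93 ± 2.58 in uncrushed wells (SD over wells), differences of 2.24 and 2.11. The direction was the same within each plate, at 3.73, 0.44 and 1.91 for day 2 and 2.13, 2.28 and 6.19 for day 4, whose plate 3 value comes from 2 deep wells. Of the summed Isg15 RPM at day 4, 88.7% lay in 1 plate 3 well, replicate 42, a well of 82047 reads with 108 genes and 1 microglia marker found. Usp18, the protease that removes Isg15 and damps the receptor, was found in 2, 3 and 7 wells, with highest values of 1966, 649 and 378 FPKM in the order of time. It stood at 1.10 ± 2.50 at day 2 and 1.92 ± 3.14 at day 4, against 0.71 ± 2.25 in uncrushed wells, differences of 0.38 and 1.20. Within plates the day 4 difference was 2.07, 0.89 and -0.74, and without the neutrophil or rod wells it was 0.83. More wells held Usp18 at day 4, although its highest value lay in an uncrushed well. Herc6, the mouse ligase of Isg15, was found in 5, 1 and 4 wells and differed by -0.43 and 0.13. The Isg15 gene (ENSMUSG00000035692) lies on chromosome 4, 156199455 to 156200796, minus strand.

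The Ifit proteins bind viral RNA, and their genes lay almost wholly in a handful of wells. Ifit3 was found in 4 of 39 uncrushed wells, 7 of 25 day 2 wells and 2 of 24 day 4 wells, with medians of 0, 0.466 and 0 FPKM and highest values of 4815, 1426 and 768. Its mean log2(FPKM + 1) was 2.78 ± 3.96 at day 2 and 1.34 ± 3.17 in uncrushed wells (SD over wells), a difference of 1.45, and 0.97 ± 2.29 at day 4. Day 4 minus day 2 was -1.81. Day 2 minus uncrushed was 3.95 on plate 1, -1.50 on plate 2, the plate of uncrushed replicate 26, and 1.20 on plate 3. Over all wells Ifit3 differed by 0.97 at day 2, and by -0.47 between the days. Ifit1 was found in 2, 1 and 1 wells, each of them among the 4 with more than 30 members, and Ifit2 in 4, 3 and 3. Both differed by less than 1 in every comparison. Of the Ifit3 values under 100 reads, 71.4% were fractions of reads, so its level is uncertain, as reads may belong to related genes. Fractions were common in general, as only 40.9% of such values were whole over all genes and all 144 wells.

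In the oligoadenylate synthetase family, of which only the active enzymes make activators of RNase L, Oas1a was higher at day 4 by 1.55 and Oasl2 at day 2 by 1.0. Oas1a was found in 5, 6 and 8 wells in the order of time, with highest values of 684, 1006 and 372 FPKM. On the log2(FPKM + 1) scale it averaged 2.63 ± 3.33 at day 4 and 1.07 ± 2.54 in uncrushed wells (SD over wells), with plate values of 1.25, 2.40 and -0.78. Neither call held without the neutrophil or rod wells, where Oas1a differed by 0.97 at day 4 and Oasl2 by 0.95 at day 2, or over all wells, at 0.81 and 0.94. Of its values under 100 reads 72.2% were fractions, so reads may belong to its close copies. Oas2, Oas3 and Oasl1 were found in 0 to 4 wells of any group and stayed within 0.13 to 0.73 of uncrushed wells on both days. The sensors of foreign RNA and DNA, Ifih1, Dhx58 and Zbp1, were found in 1 to 7 wells of a group, and Zbp1 differed from uncrushed wells by 0.44 at day 2 and 1.0 at day 4, where it fell just short of the counted size.

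Slfn2, a Schlafen protein that keeps T cells and monocytes quiescent, showed the largest difference of any member. It was found in 3 of 39 uncrushed wells, 13 of 25 day 2 wells and 8 of 24 day 4 wells, with medians of 0, 12.7 and 0.601 FPKM and highest values of 477, 1800 and 883. Its mean log2(FPKM + 1) was 4.60 ± 4.30 at day 2 and 2.73 ± 3.50 at day 4, against 0.86 ± 2.26 in uncrushed wells (SD over wells), differences of 3.74 and 1.88. Day 4 minus day 2 was -1.87. Within plates the difference from uncrushed wells was 4.91, 1.95 and 4.22 at day 2 and 2.14, 2.25 and -0.60 at day 4. The gene (ENSMUSG00000072620) lies on chromosome 11, 83065112 to 83070678, plus strand. Slfn5 was found in 2, 3 and 4 wells and Slfn8 in 3, 5 and 1, and day 4 minus day 2 was -1.07 for Slfn8, or -0.70 over all wells.

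After the crush, Slfn2 was found more often in wells holding neutrophil or rod markers, which was not so in uncrushed wells. Of the 13 neutrophil markers, at least 3 were found in 3 of 39 uncrushed wells, 9 of 25 day 2 wells and 6 of 24 day 4 wells, and their sum ran from 0 to 111768, 96699 and 81179 RPM in these groups. Ngp, Camp and Ltf, granule genes of the list, were at 0 found wells in all 3 groups. At day 2, Slfn2 was found in 7 of the 9 wells holding neutrophil or rod markers (median 364 FPKM) and in 6 of the other 16 (median 0.918). At day 4 it was found in 4 of 6 such wells (median 96.8 FPKM) and in 4 of the other 18 (median 0.0375). Of these 4 of 6, replicates 33, 22 and 21 held 15 microglia markers and 3 neutrophil markers each, with 38, 22 and 14 members. The other, replicate 8, held 1 microglia marker and 7 neutrophil markers. In the uncrushed group Slfn2 was found in 0 of 7 wells holding neutrophil or rod markers and in 3 of the other 32. Without such wells the Slfn2 difference was 2.45 at day 2 and 0.73 at day 4. In the same reduced set Isg15 differed by 2.63 and 2.33, Ifi27l2a by 2.22 and 2.55, and Ly6e by -1.52 and -0.29. Rod markers reached 3 in 4 uncrushed wells, 1 day 2 well and 1 day 4 well. The part of neutrophil RNA in the level of Slfn2 was not tested. No well held more than 2 of 8 monocyte markers, 1 of 8 T and NK cell markers or 1 of 6 markers of plasmacytoid dendritic cells, which are known for making interferon. The monocyte markers still summed to as much as 42675 RPM in a day 4 well, beside a day 4 median of 39270 RPM for the microglia markers. A low count of markers therefore does not show that monocyte RNA was absent.

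**Figure D5:**
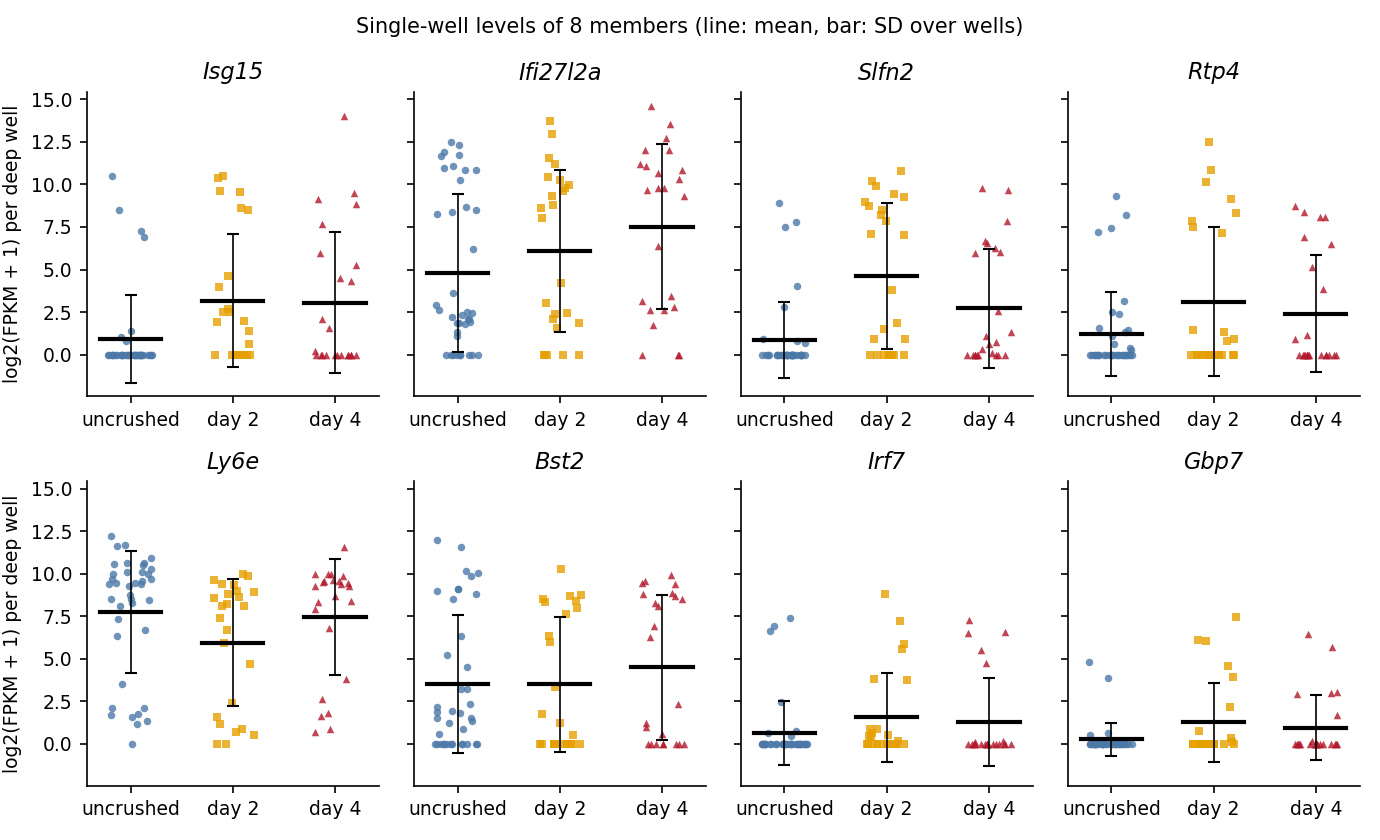
log2(FPKM + 1) of 8 members in each deep well, 1 point per well, for uncrushed (39), day 2 (25) and day 4 (24) wells, with the mean (line) and SD over wells (bar). Isg15, Slfn2, Rtp4, Irf7 and Gbp7 are at 0 in most uncrushed wells and high in a few, and the 3 groups overlap in all 8 genes.

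Among the other antiviral effectors, Ifi27l2a was higher by 1.28 at day 2 and by 2.72 at day 4, where it led all members. Its mean log2(FPKM + 1) was 6.07 ± 4.77 at day 2 and 7.51 ± 4.84 at day 4, against 4.79 ± 4.63 in uncrushed wells (SD over wells), and day 4 minus day 2 was 1.44. Within plates it was 3.42, -0.28 and 0.41 at day 2 and 4.47, 1.79 and 3.33 at day 4. The difference between the days was 0.46 over all wells and 0.33 without the neutrophil or rod wells. Ly6e went the other way at day 2, at 5.94 ± 3.73 against 7.73 ± 3.58 in uncrushed wells, a difference of -1.79 with plate values of -0.28, -4.59 and -1.30. At day 4 it differed from uncrushed wells by -0.28 and from day 2 wells by 1.5. Bst2 differed by -0.03 at day 2 and 0.96 at day 4.

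Rtp4, a transport protein for receptors that interferon induces, was found in 4 of 39 uncrushed wells, 8 of 25 day 2 wells and 8 of 24 day 4 wells, with a median of 0 FPKM in all 3 groups and highest values of 646, 5717 and 416. On average log2(FPKM + 1) was 3.12 ± 4.38 at day 2 and 2.41 ± 3.44 at day 4, against 1.20 ± 2.49 in uncrushed wells (SD over wells), differences of 1.92 and 1.20. Within plates it was 1.45, 2.89 and 2.17 at day 2 and 0.57, 2.72 and -1.28 at day 4, and 56.5% of the summed day 2 RPM lay in replicate 19. Trim30a, which restrains Toll-like receptor signalling, was found in 3, 7 and 8 wells, with highest values of 835, 291 and 541 FPKM. It stood at 1.82 ± 2.78 at day 2 and 2.40 ± 3.33 at day 4, against 0.79 ± 2.19 in uncrushed wells, differences of 1.03 and 1.61. Both Rtp4 and Trim30a were spread over more wells after the crush, with values that overlap those of uncrushed wells. Ifi35, a leucine zipper protein, was found in 5, 5 and 10 wells, with highest values of 1523, 484 and 466 FPKM and plate values at day 4 of 1.0, 2.62 and -0.53. It stood at 1.81 ± 2.78 at day 2 and 3.11 ± 3.59 at day 4, against 1.32 ± 2.86 in uncrushed wells, differences of 0.49 and 1.78, and day 4 minus day 2 was 1.30. Samhd1, which breaks down the nucleotides that retroviruses need, was found in 4, 6 and 9 wells, up to 165, 199 and 137 FPKM, and differed by 0.77 and 1.49. Without the wells holding 3 or more neutrophil or rod markers, Trim30a differed by 0.34 at day 2 and 0.88 at day 4, Samhd1 by 0.14 and 1.11, and Rtp4 by 2.18 and 0.34, so Trim30a lost the counted size on both days and Rtp4 at day 4. Over all wells Samhd1 differed by 0.47 at day 4, and Ifi35 by 0.36 between the days. Rsad2, Mx1, Ifi44, Xaf1, Parp14, Cmpk2 and Ifi204 differed from uncrushed wells by less than 1 on both days. Without the neutrophil or rod wells, Xaf1 differed by 1.40 and Ifi204 by 1.21 at day 2, and Bst2 by 1.24 at day 4. Of the Ifi204 values under 100 reads, 76% were fractions. Mx1, a dynamin-like antiviral GTPase, is annotated as a polymorphic pseudogene, and it was found in 2 wells of each group.

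The gamma-induced GTPases act on membranes around intracellular microbes. At least 1 of the 6 was found in 6 of 39 uncrushed wells, 12 of 25 day 2 wells and 9 of 24 day 4 wells. Gbp7 was found in 2, 6 and 6 wells in that order, with highest values of 26.9, 171 and 87.9 FPKM, and differed by 1.0 at day 2 and 0.70 at day 4. Its day 2 value was 0.98 without the neutrophil or rod wells, 0.83 over all wells and 1.08, -0.32 and 2.05 within plates. Irgm1 was found in 4, 5 and 8 wells and differed by 0.54 and 0.98. Gbp2 was found in 2, 4 and 2 wells and differed by 0.90 and 0.25, Gbp3 in 2, 3 and 4 wells by 0.67 at both days, and Igtp in 3, 4 and 3 wells by 0.43 and 0.13. Iigp1 was found in 2, 1 and 1 wells and differed by -0.04 and -0.11. The median over the 6 genes was 0.61 at day 2 and 0.46 at day 4, beside 0.45 and 0.51 over the 34 type I members. Fractions made up 72.7% of the Igtp values under 100 reads and 53.8% of those of Gbp7, and such reads may be shared with related genes. Over all genes, and over all 144 wells and not the deep ones alone, only 40.9% of such values were whole. Fractions were thus not particular to these 2.

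Of 20 interferon ligand genes looked at, Ifnb1 was found in the 1 uncrushed well described, and the other 19, the alpha, gamma, epsilon, kappa and lambda interferons, were at 0 found wells in every group. Receptors were more common. Ifnar1 was found in 0 of 39 uncrushed wells, 2 of 25 day 2 wells and 5 of 24 day 4 wells, and Ifnar2 in 13, 11 and 12. Ifngr1 was found in 11, 13 and 10 wells and Ifngr2 in 5, 9 and 13. The difference from uncrushed wells was 1.83 at day 2 and 0.18 at day 4 for Ifngr1, and 1.41 and 2.35 for Ifngr2. Without the neutrophil or rod wells, Ifngr1 differed by 2.25 and 0.68 and Ifngr2 by 0.57 and 1.58. Of 14 receptor and signalling genes, 3 were higher by 1 or more at day 2 and 6 at day 4, beside 13.8% and 26.5% of all tested genes, and 0 were lower on either day, beside 1.06% and 0.712%. The filter of the tested genes was passed by 11 of the 14 at day 2 and 12 at day 4. Irf1 was found in 5, 5 and 6 wells and differed by 0.20 and 0.35. Jak1, a kinase of both receptors, differed by 1.59 and 1.81. Il10rb, a receptor chain shared by interleukin 10 and the lambda interferons, was higher at day 4 than in uncrushed wells by 2.31 and than at day 2 by 1.89. Day 4 minus day 2 was -1.64 for Ifngr1 and 0.99 for Socs1, an inhibitor of the Janus kinases.

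Among 13 sensors and interferon regulatory factors, 1 was higher at day 2 and 2 at day 4, beside the same 13.8% and 26.5% of all tested genes. These were the RNA sensor Ddx58 at 1.35 at day 2, and the kinase Tbk1 at 2.00 and the RNA receptor Tlr7 at 1.33 at day 4. Over all wells, shallow ones included, Ddx58 differed by 1.11, Tbk1 by 0.69 and Tlr7 by 0.80. Without the neutrophil or rod wells the 3 values were 1.99, 1.76 and 0.79. Of these 13, 9 passed the filter at day 2 and 10 at day 4. The factors Irf3, at 0.96 at day 2, and Irf8, at 0.97 at day 4, came next below the counted size. Day 4 minus day 2 was 1.6 for Tbk1 and -1.17 for Ddx58. Of 61 further interferon-induced genes, 13 were higher at day 2, where 13.8% of all tested genes were, and 14 at day 4, where 26.5% were. The filter was passed by 48 of the 61 at day 2 and 46 at day 4, so counts over all 61 understate the share beside that of tested genes. None of the 61 was lower on either day, a direction that 1.06% and 0.712% of tested genes took. Ifitm2, Ifitm1 and Ifitm3 led at day 2, at 3.87, 3.33 and 3.31. At day 4 Ifitm3 (3.08), the proteasome subunit gene Psmb8 (2.76) and the galectin gene Lgals9 (2.51) led. Without the neutrophil or rod wells, Ifitm2 differed by 2.26 and Ifitm3 by 2.87 at day 2. Ifitm1 then differed from uncrushed wells by only 0.15 at day 2 and by -0.41 at day 4. In the same reduced set Ifitm3, Psmb8 and Lgals9 differed by 2.53, 2.10 and 2.09 at day 4. Between the days, Ifitm1 (-2.59) and Ifitm2 (-2.18) were lower at day 4 and Lgals3bp (2.50) was higher. Ifitm3 was found in 12 of 39 uncrushed wells, 19 of 25 day 2 wells and 18 of 24 day 4 wells, more widely than any of the 40 members at day 2.

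Outside the list, genes whose level over the 88 deep wells ran closely like the mean of the members included Oas1g (Spearman's rho 0.67), the interleukin receptor gene Il10ra (0.66), Sp100 (0.64), the chaperone gene Pdia4 (0.62) and Ifngr1 (0.60). Levels were log2(RPM + 1) with the group mean subtracted, and 1614 genes found in at least 20% of the wells were compared. Their median rho was 0.32, and the number of genes found per well reached 0.60 by itself, and the part of library size in this likeness was not tested.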

How the data were processed

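The authors deposited 1 table of FPKM values for 144 single-cell libraries. Per the labels' protocols, cDNA of each sorted cell was amplified and made into libraries with Nextera XT. Per the submitters' processing notes, Trim Galore 0.4.4, cutadapt 1.16, Trimmomatic 0.36, STAR 2.7.2b, featureCounts 1.6.1 and GRCm38.p6 (mm10) were used. Gene identifiers, positions and lengths come from that table.

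FPKM was multiplied by gene length, the most frequent value above 0 in each well was taken as 1 read, and reads per well followed from it. They ran from 643 to 8065051, and 40.9% of values under 100 reads were whole within 0.01, the others being fractions of shared reads. No 2 wells held identical values. Deep wells had at least 50000 reads. Amplification without molecular identifiers means that intervals cover counting error only. Means were taken of log2(FPKM + 1), with a pseudocount of 1, and a difference of 1 was counted. With 1 sample per group no test was run.

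The members and lists were chosen with earlier results of these data known. Values are given in full for the 8 members with the largest differences from uncrushed wells on each day, the 5 between days, the 4 with the highest mean FPKM per group, the 6 gamma-induced genes, Stat2, Irf7, Irf9 and Usp18. From each list of other interferon genes, the 3 with the largest differences are named. Other members and genes were chosen after their values were seen. The result of 1 further gene is not reported here. Plates, well sets, scalings, the pseudocount and the counted size were varied. Values were computed with pandas 2.3.3, numpy 2.4.6 and scipy 1.17.1 and drawn with matplotlib 3.10.9, under Python 3.11.15.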

Additional observations from a re-analysis of the deposited data

How the results depend on the processing

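No paired analysis was possible because no test was run and replicate numbers mark wells, not animals. The number of members higher by 1 or more at day 2 than in uncrushed wells was 9. It was 4 without plate 1, 17 without plate 2, 17 with a pseudocount of 0.1, 15 on RPM, 5 relative to the median of all tested genes, 15 as a log2 ratio of mean FPKM and 17 at a counted size of 0.58. For day 4 against uncrushed wells the number was 10. It was 5 without neutrophil or rod wells, 16 without plate 1, 19 with the 18 wells of conflicting tag left out, 19 with them counted as day 2, 17 with a pseudocount of 0.1, 6 relative to the median of all tested genes and 18 at a size of 0.58. For day 4 against day 2 the number was 3. It was 1 over all wells, 13 without plate 1, 1 without plate 2, 5 without plate 3, 7 with the conflicting wells left out, 7 with them counted as day 2, 9 with a pseudocount of 0.1, 6 on RPM, 7 as a log2 ratio of mean FPKM and 8 at a size of 0.58. The causes of these shifts were not tested. Leaving out each well in turn, an alternative chosen after seeing the data, gave 6 to 13, 7 to 13 and 3 to 6 in the same order of comparisons. The median number of members per well was 2 in uncrushed wells (1 over all wells, 4 with members counted at FPKM 1 or more, 2 to 2 with single wells left out). It was 5 at day 2 (3 over all wells, 5 to 5.5 with single wells left out) and 4.5 at day 4 (0 over all wells, 4 to 5 with single wells left out). Shallow wells, with at most 14205 reads, limit the counts over all wells.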
